A study of Zea mays with 8 samples.

Results

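The storage protein genes described here are 5 zein genes of the gamma, beta and delta classes, chosen by their gene IDs among 39423 genes of a maize endosperm RNA sequencing series. They are the gamma zein genes gz16 (GRMZM2G060429), gz27 (GRMZM2G138727) and gz50 (GRMZM2G138689), the beta zein gene bz15 (GRMZM2G086294) and the delta zein gene dzs18 (GRMZM2G100018). RNA came from endosperm of Zea mays kernels in the W22 background, collected 12 days after pollination. The 2 groups were 4 pools of kernels labelled ded1-ref, which carry a mutant allele of ded1, and 4 pools of their normal siblings, so that each mutant pool has 1 normal pool as its partner. The product of ded1 is known as a transcription factor of the MYB family. Both groups share the W22 background and the age of the kernels, and each library is a pool. The sources used here do not give the number of kernels in a pool, or how many mutant copies of ded1 those kernels carried.

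Zeins are the prolamins of maize, the alcohol-soluble storage proteins that endosperm cells deposit in protein bodies inside the endoplasmic reticulum. The gamma and beta zeins are rich in cysteine and are known to start protein bodies and to form their outer shell, while alpha and delta zeins fill the interior. Delta zeins are known for a high methionine content. gz16 and gz27 encode closely related gamma zeins, gz50 a larger and more distant one. The transcription factors opaque2 and the prolamin-box binding factor are known regulators of zein genes.

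The recovered depth was 10536845 to 20725033 reads per library, and between 44763 and 517503 reads fell on a single member in a library, so the counting error of a value was at most 0.47%. That error leaves out differences between pools and any effect of the amplification of the libraries. The labelled tissue was checked by endosperm genes. The 21 alpha zein genes named z1A to z1C together took 34.2 to 38.2% of all TPM in the libraries labelled ded1-ref and 22.7 to 26.7% in the normal libraries. The starch branching gene ae1 (GRMZM2G032628) stood at 1493 TPM in the libraries labelled ded1-ref and 2667 TPM in the normal libraries on average, and the zein regulator o2 at 105 TPM in the libraries labelled ded1-ref and 166 TPM in the normal libraries. The starch genes sh2, bt2 and wx1, also known to be abundant in endosperm, were listed at means of 4.37, 1.93 and 2.14 TPM in libraries labelled ded1-ref and of 7.81, 2.98 and 3.53 TPM in the normal libraries. ded1 itself stood at 67.3 to 100.7 TPM in the libraries labelled ded1-ref and at 37.0 to 42.0 TPM in the normal libraries, so the level gives no check of the mutant label, and all directions refer to libraries as labelled.

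TPM values are shares of a library per length, and 1 transcript row carried the whole signal of each member. The second rows listed for gz27 and bz15 were at 0 in all 8 libraries, so a split between transcripts could not be tested. The length behind a TPM value, relative to that behind gz50, was 1.61 for gz27, 0.818 for gz16, 0.722 for bz15 and 0.635 for dzs18. The length used for gz27 was thus above that used for gz50, although their names refer to proteins of 27 and 50 kDa, and the order of these genes rests on it. The gamma zein genes are related in sequence, gz27 is known to be duplicated in some maize lines, and the sources used here do not say how reads that match several genes were counted. The split of reads among them is therefore uncertain.

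gz16 was the most abundant of the 5 genes in every library, and the gene that followed it differed between the groups. In the libraries labelled ded1-ref the descending order of mean TPM was gz16, gz50, bz15, dzs18, gz27. In the normal libraries it was gz16, bz15, dzs18, gz50, gz27. gz50 stood above bz15 in 4 of 4 libraries labelled ded1-ref, and below it in 4 of 4 normal libraries. Neighbours in these orders were compared by their ratio within each library. In the libraries labelled ded1-ref, dzs18 over gz27 ran from 0.669 to 2.10 and bz15 over dzs18 from 0.795 to 1.91, so these neighbours did not keep 1 order. In the normal libraries dzs18 over gz50 ran from 0.836 to 1.36, while bz15 was above dzs18 and gz50 above gz27 in 4 of 4 libraries. All 5 were among the most abundant transcripts of the endosperm. Their ranks among all genes ran from 12 to 33 in the libraries labelled ded1-ref and from 5 to 26 in the normal libraries.

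The gamma zein genes differed among themselves: gz16 and, less firmly, gz27 were lower on the TPM scale in the libraries labelled ded1-ref, and gz50 was not. gz16 had 17117, 15626, 23083 and 14692 TPM in ded1-ref replicates 1 to 4, against 26707, 32542, 33642 and 24901 TPM in normal replicates 1 to 4. Every library labelled ded1-ref lay below every normal library, with ded1-ref replicate 3 closest to them. The means were 17630 ± 3771 TPM in the libraries labelled ded1-ref and 29448 ± 4296 TPM in normal libraries (SD, n = 4), a log2 change of -0.75 ± 0.13 (SE; limma adjusted p = 0.00036). In such bulk samples, fewer cells of a type and less RNA per cell cannot be told apart.

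gz27, whose product is known to be needed for protein body initiation, had 5750, 4753, 3835 and 3324 TPM in ded1-ref replicates 1 to 4, against 5367, 6609, 6232 and 4604 TPM in normal replicates 1 to 4. The groups overlapped, and in pair 1 the library labelled ded1-ref was the higher one. The log2 change was -0.39 ± 0.14 (SE; limma adjusted p = 0.0242), and the call was lost without the replicate block (adjusted p = 0.0607), without replicate 2 (0.0862), without replicate 3 (0.108), with no filter on low values (0.109) and with the total set again without zein genes (0.304). Over these and the other alternatives its adjusted p ran from 0.00146 to 0.304.

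gz50 had 8024, 9744, 7654 and 7792 TPM in ded1-ref replicates 1 to 4, against 6836, 7208, 7964 and 6459 TPM in normal replicates 1 to 4. It was the only one of the 5 with a higher mean TPM in the libraries labelled ded1-ref, at 8304 ± 972 TPM against 7117 ± 642 TPM in normal libraries (SD, n = 4), and the groups overlapped. The log2 change of 0.22 ± 0.12 (SE) did not pass the test (limma adjusted p = 0.123), although it did without replicate 3 (0.0467) and with the total set again without zein genes (0.0132). Over all alternatives tried, the adjusted p of gz50 ran from 0.0132 to 0.409.

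The beta and delta zein genes had lower TPM values in the libraries labelled ded1-ref. bz15 had 6404, 6155, 6402 and 5229 TPM in ded1-ref replicates 1 to 4, against 10313, 12600, 12659 and 8709 TPM in normal replicates 1 to 4. The groups did not overlap, and the spread was narrow in the libraries labelled ded1-ref, with a coefficient of variation of 9.23% against 17.3% in normal libraries. The log2 change was -0.86 ± 0.12 (SE; limma adjusted p = 9.4e-05).

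dzs18 had 3844, 3215, 8057 and 3617 TPM in ded1-ref replicates 1 to 4, against 5713, 8580, 10796 and 7367 TPM in normal replicates 1 to 4. ded1-ref replicate 3 stood far above the other libraries labelled ded1-ref and inside the range of the normal libraries, and normal replicate 3 was the highest of the normal libraries. The log2 change was -0.86 ± 0.16 (SE; limma adjusted p = 0.00051), and -1.0045 without replicate 3. Of the 5 genes dzs18 varied most within a group, with coefficients of variation of 48.4% in the libraries labelled ded1-ref and 26.4% in normal libraries.

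**Figure D1:**
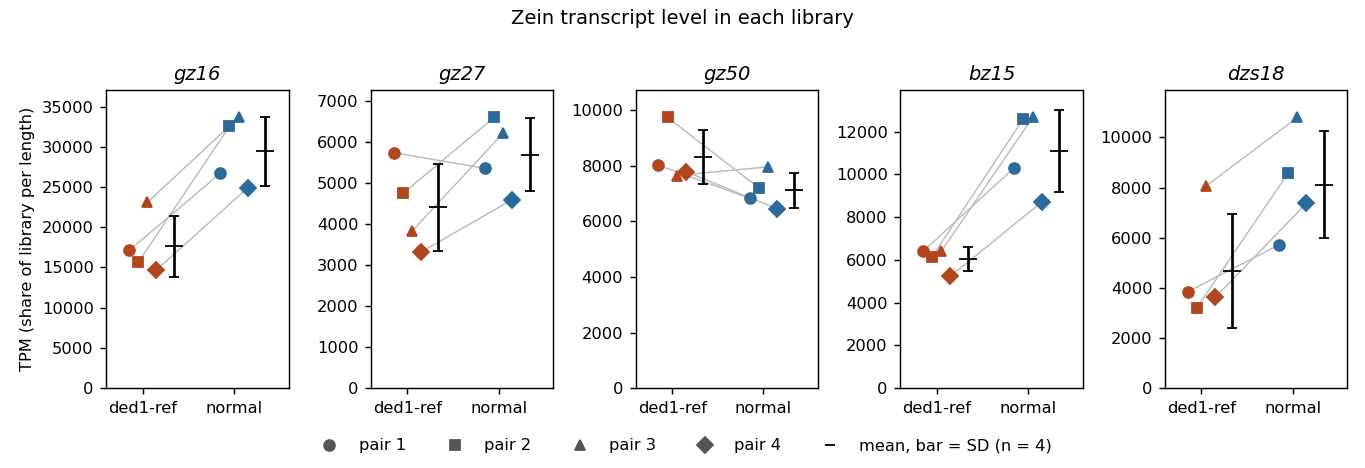
TPM of each gene (vertical axes from 0, 1 panel per gene) in the 4 libraries labelled ded1-ref and the 4 normal libraries. Symbols mark the pairs, grey lines join the 2 libraries of a pair, and black bars are the mean and SD (n = 4). The groups lie apart for gz16 and bz15 and overlap for gz27, gz50 and dzs18.

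These TPM values have to be read against the rest of the library, in which the median of 13671 tested genes had a log2 change of -0.68. On the TPM scale 4 of the 5 members were lower in the libraries labelled ded1-ref, where 69.8% of all tested genes were called lower, and 2 of the 5 had groups that did not overlap with the lower values in the libraries labelled ded1-ref, as did 52.6% of all tested genes. None of the 5 had TPM groups apart with the higher values in the libraries labelled ded1-ref, as 2.14% of all tested genes did. As a share of recovered reads, which is not divided by length, bz15 was apart with lower values and gz50 with higher values in the libraries labelled ded1-ref, as were 44.7% and 2.82% of all tested genes. In read shares gz16 overlapped, at 1.55 to 2.48% in the libraries labelled ded1-ref and 2.34 to 3.19% in normal libraries, as did gz27 and dzs18. gz50 took 1.003 to 1.200% of the reads in the libraries labelled ded1-ref and 0.743 to 0.922% in normal libraries. The median log2 change of the 5 members in TPM was -0.75. The share of all tested genes with a lower change than the member was 32.9% for bz15, 33.1% for dzs18, 42.6% for gz16, 75.0% for gz27 and 94.0% for gz50. bz15, dzs18 and gz16 thus changed about as much as the typical gene of the endosperm, and gz27 and gz50 lay towards the upper end.

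Dividing TPM by median-of-ratios factors, which sets the typical gene to no change, gave the scaled test. In it gz50 was higher in the libraries labelled ded1-ref, where 12.3% of all tested genes were called higher. Of all tested genes, 1688 were called higher and 1445 lower, and with upper quartile scaling 1405 and 1846. The change of gz50 passed with either scaling. Its scaled TPM was 11592, 9857, 12536 and 9803 in ded1-ref replicates 1 to 4, against 5445, 4909, 5778 and 4774 in normal replicates 1 to 4. Every library labelled ded1-ref was above every normal library, as for 12.0% of all tested genes, and the 4 pairs gave log2 changes from 1.01 to 1.12. The log2 change was 1.06 ± 0.20 (SE; limma adjusted p = 0.00453), a 2.09-fold difference. The call was lost without replicate 4 (adjusted p = 0.0598) and with no filter on low values (0.0628), and over all alternatives the adjusted p ran from 0.000138 to 0.0628.

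The other 4 members did not pass the scaled test. gz27 had a scaled log2 change of 0.46 ± 0.21 (SE; limma adjusted p = 0.15) and was higher in 4 of 4 pairs, by 0.10 to 0.96. gz16 had 0.09 ± 0.28, bz15 -0.02 ± 0.22 and dzs18 -0.02 ± 0.27, with limma adjusted p-values from 0.85 to 0.976. Their pairs differed in sign, and dzs18 ran from -0.85 in pair 2 to 0.75 in pair 3. A missed threshold at these SEs does not show that the 4 genes were unchanged. None of the 5 members passed the limma test in the same direction on both scales, while 10.6% of all tested genes were lower and 3.53% higher on both. At an unadjusted p under 0.05, 4 of the 5 members passed on the TPM scale, as did 76.2% of all tested genes, and 1 with the scaled values, as did 35.8%. With limma-voom on recovered reads, gz50 was again the only member called (adjusted p = 0.000138).

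**Figure D2:**
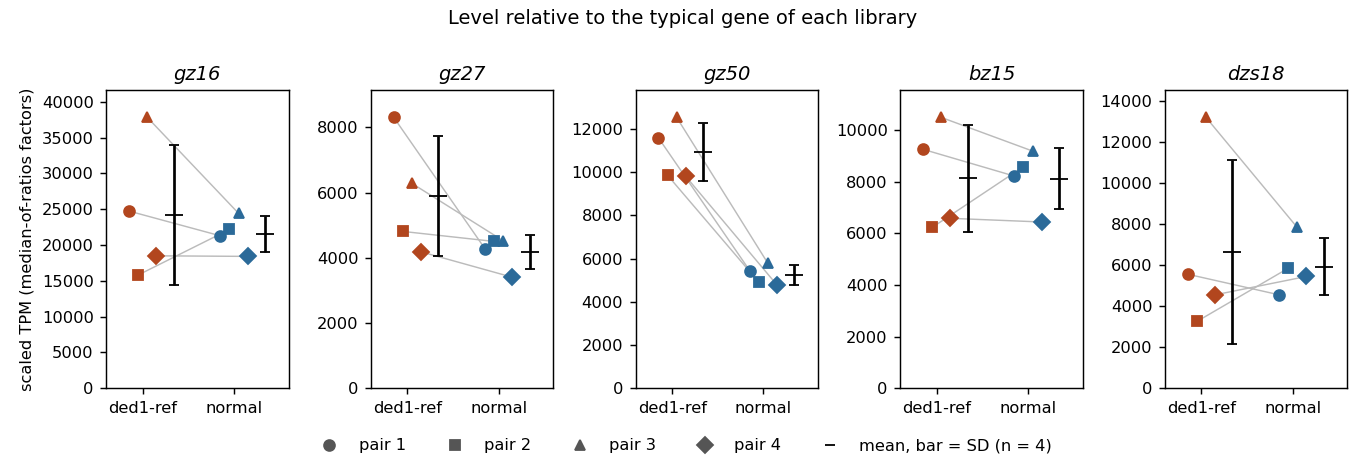
TPM divided by median-of-ratios factors (vertical axes from 0, 1 panel per gene) in the 4 libraries labelled ded1-ref and the 4 normal libraries. Symbols mark the pairs and black bars are the mean and SD (n = 4). gz50 is higher in each library labelled ded1-ref than in any normal library, and the groups overlap for the other 4 genes.

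The part of each gene in the summed TPM of the 5 does not depend on how libraries are scaled. The sum itself was 3.47 to 4.90% of all TPM in the libraries labelled ded1-ref and 5.20 to 7.13% in the normal libraries. Of it, gz50 made up 19.5, 24.7, 15.6 and 22.5% in ded1-ref replicates 1 to 4, against 12.4, 10.7, 11.2 and 12.4% in normal replicates 1 to 4. The parts of gz50 did not overlap between the groups, and their means were 20.6% ± 3.93 in the libraries labelled ded1-ref and 11.7% ± 0.893 in normal libraries (SD, n = 4; two-sided exact permutation p = 0.0286; no smaller p is possible with 4 against 4 libraries). The part of gz50 was larger in 4 of 4 pairs, by at least 4.44 percentage points.

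gz16 remained the largest part, at 42.7% ± 3.18 in the libraries labelled ded1-ref and 48.0% ± 0.602 in normal libraries (SD, n = 4; two-sided exact permutation p = 0.0286). It was smaller in 4 of 4 pairs, although by only 0.11 percentage points in pair 3. bz15 made up 14.8% ± 1.20 in the libraries labelled ded1-ref and 18.0% ± 0.946 in normal libraries (two-sided exact permutation p = 0.0286, n = 4). dzs18 made up 11.1% ± 3.68 in the libraries labelled ded1-ref and 13.1% ± 2.06 in normal libraries (two-sided exact permutation p = 0.429, n = 4), and gz27 made up 10.9% ± 2.70 in the libraries labelled ded1-ref and 9.29% ± 0.569 in normal libraries (two-sided exact permutation p = 0.371, n = 4). The difference in the part of gz27 was 1.57 percentage points with all libraries, 0.692 without replicate 1, and 2.40 without replicate 3. That of dzs18 was -2.01 percentage points, and -3.11 without replicate 3 and -1.16 without replicate 2. These 5 parts add up to the whole in each library, so a larger part of 1 gene makes the others smaller, and the 5 tests are not independent. Parts of a sum without gz50 were not computed. The smaller parts of gz16 and bz15 therefore cannot be separated from the larger part of gz50. All 5 parts varied more in the libraries labelled ded1-ref. The normal libraries gave nearly the same part for gz16, from 47.2 to 48.6%.

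**Figure D3:**
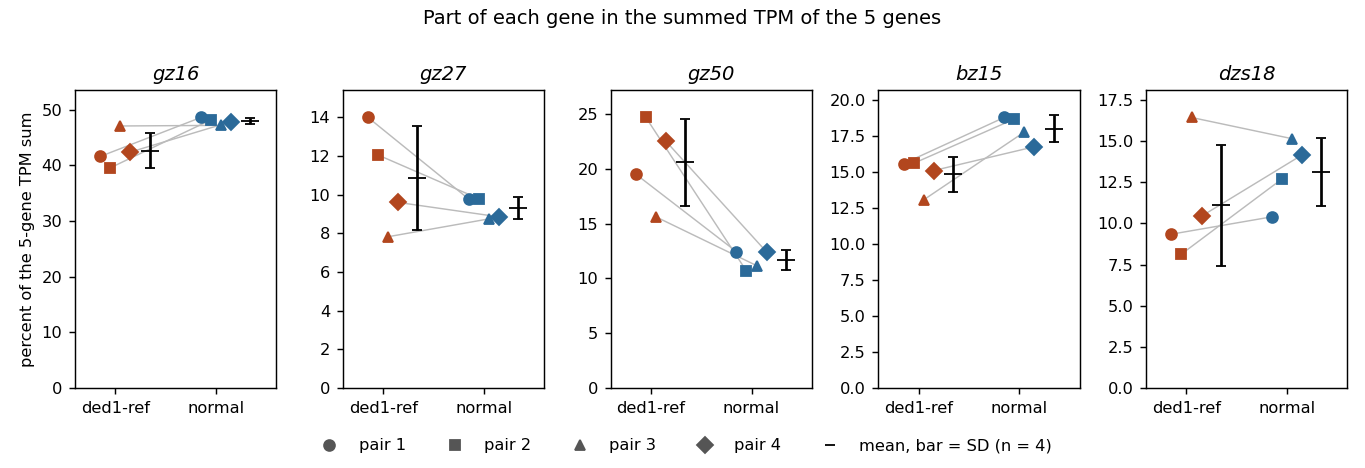
Part of each gene in the summed TPM of the 5 genes, in percent (vertical axes from 0, 1 panel per gene), for the 4 libraries labelled ded1-ref and the 4 normal libraries. Symbols mark the pairs and black bars are the mean and SD (n = 4). The part of gz50 is 15.6 to 24.7% in the libraries labelled ded1-ref and 10.7 to 12.4% in normal libraries, while those of gz16 and bz15 are smaller in the libraries labelled ded1-ref.

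Ratios between single members showed which of them shifted against each other. Of the 10 ratios, each tested alone and without adjustment, 3 reached the smallest exact p of 0.0286. gz50 over bz15 was 1.25, 1.58, 1.20 and 1.49 in ded1-ref replicates 1 to 4, against 0.663, 0.572, 0.629 and 0.742 in normal replicates 1 to 4. gz50 over gz16 was 0.489 ± 0.122 in the libraries labelled ded1-ref and 0.243 ± 0.0177 in normal libraries (SD, n = 4). gz27 over bz15 was 0.726 ± 0.137 in the libraries labelled ded1-ref and 0.516 ± 0.0165 in normal libraries (SD, n = 4). In each of these 3 ratios the groups did not overlap.

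gz50 and gz27 are neighbours on chromosome 7, with no other gene of the RefSeq table for Zm-B73-REFERENCE-NAM-5.0 between them, and their ratio was 1.95 ± 0.398 in the libraries labelled ded1-ref and 1.26 ± 0.129 in normal libraries (SD, n = 4; two-sided exact permutation p = 0.0571). By recovered reads, with no division by length, gz27 was above gz50 in 4 of 4 normal libraries and in ded1-ref replicate 1. The ratios of gz16, bz15 and dzs18 to each other had the smallest differences in mean, and these moved with single replicates. The mean log2 ratio of the groups differed by 0.11 for gz16 over bz15 (two-sided exact permutation p = 0.543), by 0.11 for gz16 over dzs18 (exact p = 0.629) and by 0.00098 for dzs18 over bz15 (exact p = 1.0, n = 4 per group). dzs18 over bz15 was 1.26 in ded1-ref replicate 3 and 0.522 to 0.692 in ded1-ref replicates 1, 2 and 4, against 0.554 to 0.853 in normal libraries. Without replicate 3 the difference was -0.19 for dzs18 over bz15, 0.18 for gz16 over dzs18 (0.025 without replicate 2) and -0.0015 for gz16 over bz15, an alternative chosen after the data were seen and given with no test. Across the 8 libraries, gz16 correlated with dzs18 at a Pearson r of 0.935 and with bz15 at 0.921 on log2 scaled TPM, while gz50 correlated with dzs18 at 0.173 and with bz15 at 0.190. These correlations are descriptions over 8 libraries that share 2 groups, 4 pairs and 1 set of scaling factors.

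Set against the alpha zein genes, each of the 5 members had a lower mean ratio in the libraries labelled ded1-ref, and gz50 differed least. The 21 alpha zein genes had a median log2 change of 0.52 in TPM and of 1.36 in the scaled test. Of them, 20 were higher on both scales, against 3.53% of all tested genes. In the scaled test 20 of the 21 had a larger change than gz50. bz15 stood at 0.0175, 0.0180, 0.0168 and 0.0149 of the alpha zein sum in ded1-ref replicates 1 to 4, against 0.0386, 0.0555, 0.0551 and 0.0347 in normal replicates 1 to 4. For bz15, gz16, dzs18 and gz27 every library labelled ded1-ref lay below every normal library in this ratio. For dzs18 the margin was narrow, with 0.0211 in ded1-ref replicate 3 against 0.0214 in normal replicate 1. The alpha zein sum averaged 36.0% of all TPM in the libraries labelled ded1-ref and 24.4% in normal libraries. The median tested gene had a log2 change of -0.68 in TPM, so a lower ratio to alpha zein was also the direction of the typical gene. The share of all tested genes with groups apart in this ratio was not computed. Within a library every gene is divided by the same alpha zein sum. Relative to the median tested gene, the log2 TPM change was -0.18 for bz15 and for dzs18 and -0.07 for gz16. It was 0.29 for gz27 and 0.9 for gz50. The lower ratios of bz15, dzs18, gz16 and gz27 therefore do not set them apart from the typical gene.

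The log2 ratio to the alpha zein sum differed by -1.42 for bz15, -1.42 for dzs18, -1.32 for gz16 and -0.95 for gz27, each with an two-sided exact permutation p = 0.0286 (n = 4 per group). For gz50 the difference was -0.34, lower in 4 of 4 pairs but with overlapping groups (exact p = 0.0857, n = 4 per group), and leaving out a replicate gave -0.41 to -0.20, with the value nearest 0 for replicate 3 left out. Against the 9 z1A genes alone, an alternative chosen after the data were seen, the difference of dzs18 was -1.40 (exact p = 0.0571). The alpha zein sum covers only genes named so in the RefSeq table, and near-identical alpha zein copies share reads.

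**Figure D4:**
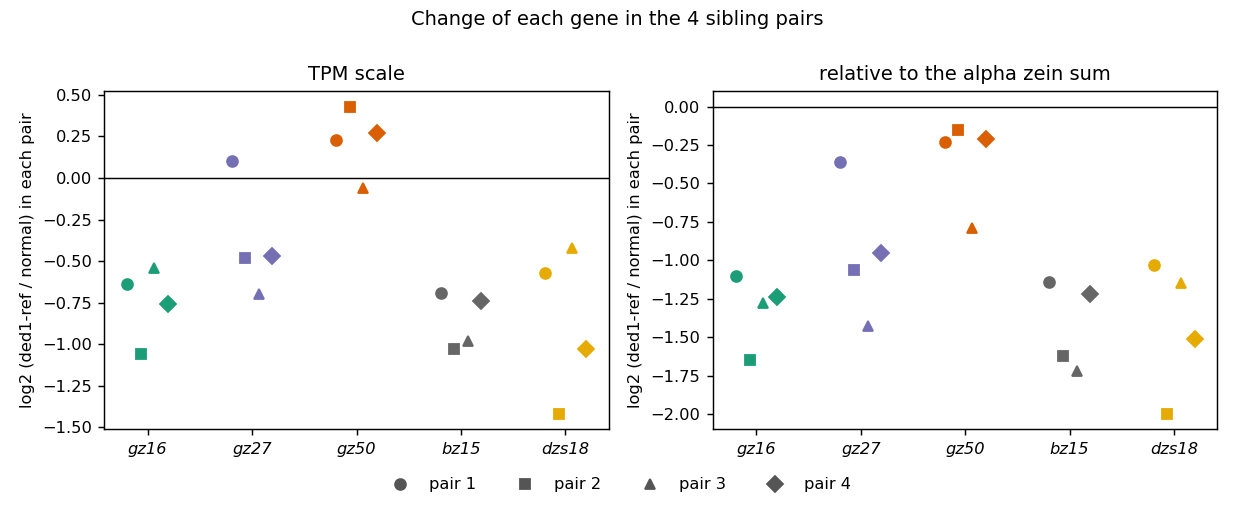
Log2 of ded1-ref over normal in each of the 4 pairs, for the TPM of each gene (left) and for its ratio to the alpha zein sum (right). Each symbol is 1 pair, and the line marks no change. On the TPM scale gz16, bz15 and dzs18 are below 0 in 4 of 4 pairs, gz27 in 3 and gz50 in 1, and against alpha zein all 5 genes are below 0 in 4 of 4 pairs.

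The 4 pairs differed among themselves, and the sample titles of pair 2 alone open with a different number. The part of that difference in the values was not tested. Pair 2 had the lowest log2 TPM changes of gz16, at -1.06, of bz15, at -1.03, and of dzs18, at -1.42, and the highest of gz50, at 0.43. Pair 3 went the other way for some members: gz16, at -0.54, and dzs18, at -0.42, had their smallest differences there, while gz27, at -0.70, and gz50, at -0.06, had their lowest values. Pair 1 was the only pair in which gz27 was higher, by 0.10. bz15 had the narrowest range of the 5 genes over the pairs, from -1.03 to -0.69. In pair 3 both libraries had the highest dzs18 and the highest gz16 of their group. ded1-ref replicate 3 also had the highest ded1 level and the highest alpha zein sum, at 38.2% of all TPM, and the lowest scaling factor, at 0.611. It had the fewest transcript rows above 0, at 25941, against 29129 to 31359 in the other libraries. Its recovered depth of 13924952 reads was above that of normal replicates 2 and 4. The part of these in the dzs18 value was not tested.

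Within the distribution of changes over all tested genes, gz50 stood out from the other members. In the scaled test 95.9% of the 13671 genes had a lower change than gz50, 84.6% a lower one than gz27, 59.5% than gz16, 48.5% than dzs18 and 48.3% than bz15. The authors' deposited table, fitted by transcript row, gives a log2 fold of 1.05 for gz50 (adjusted p = 1.54e-10), where 7.95% of its rows with an adjusted p are called higher and 6.75% lower. For gz27, gz16, dzs18 and bz15 the authors' deposited table gives 0.49, 0.16, 0.16 and 0.01, with adjusted p-values of 0.138, 0.783, 0.855 and 0.99.

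**Figure D5:**
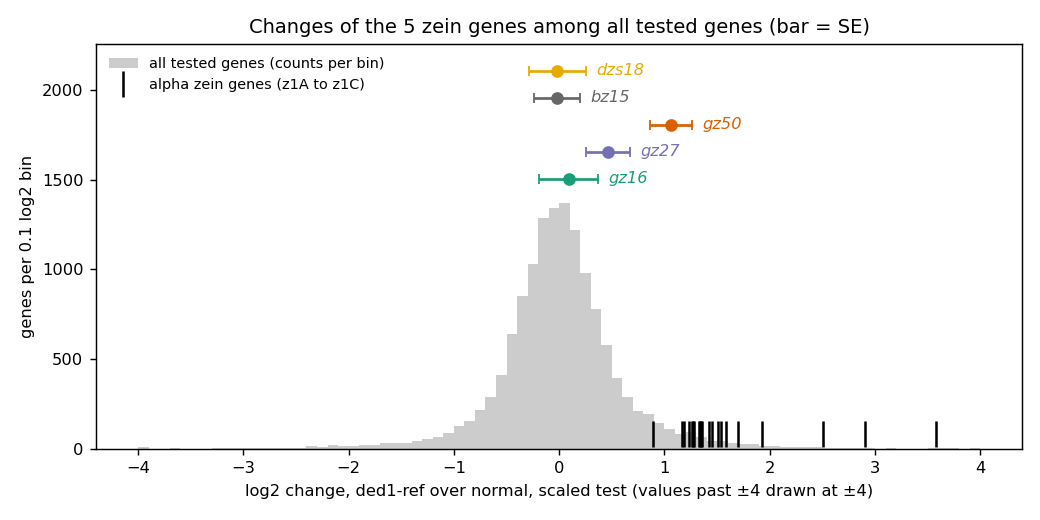
Histogram of the log2 change of ded1-ref over normal in the scaled test for all 13671 tested genes (grey, genes per bin, values past 4 in size drawn at the ends), with the 5 members above it (point and SE) and the 21 alpha zein genes as ticks. bz15, dzs18 and gz16 lie at the centre, gz27 at 0.46 and gz50 at 1.06, and the alpha zein genes lie between 0.89 and 3.58.

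The genes whose values followed each member most closely over the 8 libraries were taken from 5328 tested genes with a mean of at least 10 TPM, by Pearson r on log2 scaled TPM. The closest to gz50 was crt2 (GRMZM2G358059, also named CRH), a calreticulin gene, with an r of 0.992 and log2 changes of 0.27 in TPM and 1.11 in scaled TPM. GRMZM2G003963, with 0.991, and GRMZM2G064954, with 0.988, came next. For dzs18 they were PHD33, with 0.98, GRMZM2G153991, with 0.968, and GRMZM2G056702, with 0.961. GRMZM2G153991 was also among those of gz16, at 0.976, beside GRMZM2G144950, at 0.983, and GRMZM2G084881, at 0.976. The values were lower for bz15, with 0.953 for GRMZM2G128918, 0.942 for GRMZM2G089421 and 0.938 for GRMZM2G025646, and for gz27, with 0.942 for GRMZM2G161242, 0.938 for GRMZM2G138814 and 0.931 for GRMZM2G142984. These are the highest of 5328 values, over libraries that share their groups, pairs and scaling factors. The factors ran from 0.611 to 1.47, and a gene with nearly even TPM follows them once scaled. gz50 itself ran only from 6459 to 9744 TPM. A shared regulation of gz50 and crt2 was not tested.

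Genes that regulate zeins or take part in protein bodies were counted from lists. Of 6 matched zein regulator genes 4 were tested, of which 3 were lower on the TPM scale, against 69.8% of all tested genes. In the scaled test 0 passed, and 0 had an unadjusted limma p under 0.05, against 35.8% of all tested genes. pbf1 (GRMZM2G146283), the prolamin-box binding factor gene, stood at 160 ± 18.9 TPM in the libraries labelled ded1-ref and 254 ± 34.5 TPM in normal libraries (SD, n = 4; scaled log2 change 0.18 ± 0.14 SE, limma adjusted p = 0.403). Of 6 protein body and endoplasmic reticulum genes, all tested, 4 were lower on the TPM scale, against 69.8% of all tested genes, and 1 was higher in the scaled test, against 12.3%. At an unadjusted limma p under 0.05, 3 of the 6 passed there, as did 35.8% of all tested genes. The gene that was higher was floury1 (GRMZM2G094532), known to encode a protein of the protein body membrane, at 94.0 ± 11.6 TPM in the libraries labelled ded1-ref and 112 ± 23.4 TPM in normal libraries (SD, n = 4; scaled log2 change 0.59 ± 0.12 SE, limma adjusted p = 0.00678). bip1 (GRMZM2G114793), a chaperone gene of the endoplasmic reticulum, stood at 506 ± 125 TPM in the libraries labelled ded1-ref and 648 ± 57.1 TPM in normal libraries (SD, n = 4; scaled log2 change 0.46 ± 0.16 SE, limma adjusted p = 0.0644). The scaled log2 changes of the other 4 were 0.44 for bip2, 0.35 for o10, -0.29 for o7 and -0.37 for pdi, with limma adjusted p-values from 0.113 to 0.19.

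Markers of other parts of the kernel also differed between the groups. The basal transfer layer takes up sugar for the endosperm. Its 7 matched genes summed to 150 to 292 TPM in the libraries labelled ded1-ref and 481 to 1200 TPM in normal libraries. Of these, 5 of 5 tested were lower on both scales, against 10.6% of all tested genes, and betl1 was at 0 in all 8 libraries. The 4 matched aleurone genes, which belong to the anthocyanin pathway, summed to 4.92 to 25.0 TPM in the libraries labelled ded1-ref and 0.839 to 5.28 TPM in normal libraries. Of the aleurone genes 3 of 3 tested were higher on both scales, against 3.53% of all tested genes. The 11 matched embryo genes summed to 243 to 460 TPM in the libraries labelled ded1-ref and 298 to 528 TPM in normal libraries, mostly from ole1. Of the embryo genes 3 of 4 tested were higher in the scaled test, against 12.3% of all tested genes. The embryo genes wus1 and wox5B were at 0 in all 8 libraries and kn1 and glb2 at 0.0412 TPM or less. The part of these markers in the zein values was not tested.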

How the data were processed

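Per the labels' protocols, total RNA was made into libraries by a method without strand marking, so reads of a gene and of an antisense partner cannot be told apart. The submitters' processing notes name cutadapt 1.1, Trimmomatic 0.22 and GSNAP, and the read counter and the build of the genome are not stated there. The authors deposited TPM for 63293 transcript rows per library. The authors' deposited table has DESeq2 column names, per the file headers: mean signal, log2 fold of ded1-ref over normal, standard error, test score, p-value and adjusted p-value. The deposited score runs opposite in sign to the fold, so directions follow the fold.

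Reads were recovered by solving the TPM and the deposited mean signal together, and 100% of the 236228 nonzero values were whole within 0.05 reads. They serve for depth and as an alternative.

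Rows were summed to 39423 genes, and the 13671 that reached 1 TPM in 4 or more libraries entered the test. log2(TPM + 1) was fitted with limma 3.58.1 (limma-trend, R 4.3.3) blocked by pair, with Benjamini-Hochberg adjustment over all tested genes at 0.05. For the scaled test, TPM were first divided by factors from medians of ratios. Folds of low genes are understated on this scale. Pairing rests on the design text and on titles that share a family number. The first part of that number is the same in all pairs except pair 2, and the titles do not say what it stands for. Deviations from group means correlated at 0.115, 0.333, 0.309 and 0.149 within the 4 pairs. Parts and ratios were compared with exact permutation tests (scipy 1.17.1), without adjustment. These tests treated the libraries as unpaired, because an exact paired test over 4 pairs cannot go below 0.125. The limma fit was run on simulated data with known changes in some genes, no pair effect and the same dispersion for every gene. That setting is simpler than these data, so it checks the code and not the calls.

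Members, lists and tests were chosen with earlier results of these data known. The named genes are the 5 members, the 3 tested genes most like each of them, and list genes that the text turns on; floury1, pbf1 and bip1 were picked after their values were seen. Names came from a RefSeq gene table (assembly Zm-B73-REFERENCE-NAM-5.0), which matched 18771 of the 39423 genes. Zein regulators and chaperones with no match there, and the smaller delta zein, are not analysed here. No sequences were used.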

Additional observations from a re-analysis of the deposited data

Results flagged for a closer look

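ded1-ref replicate 3 stood apart in dzs18. Its level was 8057 TPM, while the other libraries labelled ded1-ref had 3215 to 3844 TPM, and its log2 ratio to the alpha zein sum was -5.57, while the others had -6.73 to -6.58. In both measures the gap to the nearest library, as a share of the range of the 4 libraries, was past Dixon's 95% critical value. Over the 40 groups of 4 libraries examined, 2 were singled out, and chance alone singles out about 1 in 20 groups. Neither value was set aside. Without replicate 3 the log2 change of dzs18 was -1.0045 in TPM and -0.27 in scaled TPM.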

How the results depend on the processing

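Of the 118 alternative values that have a test, 103 kept the direction and the side of the threshold, and the 40 without one moved by less than 1 SD. On the TPM scale gz27 kept its log2 change of -0.39 but lost the call without the replicate block and with no filter on low values (-0.39 in both), and had -0.17 when the total was set again without zein genes; leaving out a replicate gave -0.55 to -0.28. With that total gz50 passed, at 0.43, and leaving out a replicate gave 0.15 to 0.31. In the scaled test gz50 kept 1.06 with no filter but missed the threshold, and leaving out a replicate gave 1.05 to 1.08. The scaled changes near 0 turned sign: gz16 stood at -0.0007 with upper quartile scaling and at -0.083 to 0.28 with a replicate left out, bz15 at -0.084 to 0.13 and dzs18 at -0.27 to 0.26. The log2 ratio of dzs18 to the z1A genes alone, an alternative chosen after seeing the data, was -1.40. The causes were not tested. Over all genes, leaving out a replicate gave 1005 to 1341 higher and 584 to 871 lower calls in the scaled test, against 1688 and 1445 with all libraries, and 295 higher calls on the TPM scale without replicate 2, against 482. The replicate block changed no other call, and no part of the 5-gene sum changed its call with recovered reads or without gz27 or gz16. A sum without gz50 was not tried, so the parts of gz16 and bz15 were not examined apart from that of gz50. Leaving out a replicate leaves 3 against 3 libraries, for which the smallest exact p is 0.1, so parts and ratios then have no test. The differences between the genes in TPM rest on the lengths that the authors used.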
